A study of Mus musculus with 6 samples.

Results

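Transcripts of 28 genes for the synthesis, sensing and handling of cholesterol were examined in brown adipose tissue, the heat-producing fat, of cold-exposed mice that carry or lack a truncated form of adenylyl cyclase 3. The genes were taken from a list of symbols, and all 28 matched exactly 1 of the 54385 Ensembl rows of the count table. By role they comprise 8 enzymes of the mevalonate and isoprenoid branch, 12 enzymes between squalene and cholesterol, 4 genes that control the transcription factor SREBP2, and 4 genes of sterol transport and storage. The list does not cover the whole pathway. Another 30 sterol genes are summarised later, and other enzymes and receptors of cholesterol metabolism are not analysed here.

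Adipose total RNA was sequenced from 3 wild-type (wt/wt) and 3 ADCY3∆AT libraries. ADCY3∆AT is a knockout of the AT form of Adcy3, the truncated, cold-induced form named in the series title, of an enzyme that makes cyclic AMP. All mice were C57BL/6N, aged 20 weeks, fed chow to 8 weeks of age and then a high-fat diet for 12 weeks, and kept at 4 °C for 24 h. No library came from mice kept warm or on chow throughout, so the comparison is between genotypes under cold and high-fat feeding only. The sample labels name the interscapular depot and the design text an inguinal one, and the sample labels are followed. The sources used here do not state the sex, the way the AT form was removed or whether each library came from a separate animal, so p-values measure the spread between these libraries, which may be partly technical.

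Cholesterol is built from acetyl-CoA through mevalonate, which is turned into isoprenoid units, joined to squalene, closed into the sterol ring and trimmed to cholesterol. The pathway is controlled by SREBP2, a membrane-bound transcription factor that the escort protein SCAP carries from the endoplasmic reticulum to the Golgi when membrane sterol is low. INSIG proteins hold SCAP back when sterol is plentiful, and SREBP2 switches on most enzymes of the pathway, often together with the CCAAT-binding factor NF-Y. In brown fat, as in other tissues, the related factor SREBP1 acts mainly on fatty acid synthesis.

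Promoter letters are shown first, because these genes are known for shared control and because Hmgcs1, Insig1, Lss, Hsd17b7 and Insig2 are described in detail later. RefSeq promoter windows (GRCm38.p6, 250 bases before to 50 bases after a start site) matched 23 members, all but Fdps, Fdft1, Sqle, Stard4 and Npc1. Each window was searched on both strands for the sterol regulatory element letters TCACNCCAC, the CCAAT box and the E-box CACGTG. The sterol element letters were in the windows of 1 of the 23 members, Hmgcs1, against 1.44% of all genes with a window. The CCAAT box was in at least 1 window of 21 of the 23 members (91.3%), against 41.1% of all 27025 genes with a window, and the exceptions were Acat2 and Scap. The E-box was in those of 5 members (21.7%, against 8.09% of all genes), namely Hsd17b7, Sc5d, Dhcr7, Insig1 and Scap. A match is a description of the letters only. Variant forms of these motifs were not searched, so a window without a match is not shown to lack the element. In the stretches below, which leave out annotated exons and run 5′ to 3′, capitals mark these 3 motifs, with ATTGG being the CCAAT box on the other strand.
Hmgcs1, chr13:119690101-119690350, plus strand: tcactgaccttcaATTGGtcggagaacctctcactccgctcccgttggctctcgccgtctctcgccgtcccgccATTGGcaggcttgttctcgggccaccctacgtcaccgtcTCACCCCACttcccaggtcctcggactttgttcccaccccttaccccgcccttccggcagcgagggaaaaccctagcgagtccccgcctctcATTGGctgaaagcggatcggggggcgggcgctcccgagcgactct
Insig1, chr5:28071162-28071362, plus strand: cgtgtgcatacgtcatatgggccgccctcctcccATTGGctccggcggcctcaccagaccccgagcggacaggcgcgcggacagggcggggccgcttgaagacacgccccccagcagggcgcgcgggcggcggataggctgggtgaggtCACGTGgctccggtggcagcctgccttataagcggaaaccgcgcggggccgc
Lss, chr10:76531355-76531587, plus strand: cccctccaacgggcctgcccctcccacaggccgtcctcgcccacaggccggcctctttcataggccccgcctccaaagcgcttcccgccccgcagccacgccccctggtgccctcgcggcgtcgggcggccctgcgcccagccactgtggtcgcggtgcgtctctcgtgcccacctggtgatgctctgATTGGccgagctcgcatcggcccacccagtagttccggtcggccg
Hsd17b7, chr1:169969242-169969408, minus strand: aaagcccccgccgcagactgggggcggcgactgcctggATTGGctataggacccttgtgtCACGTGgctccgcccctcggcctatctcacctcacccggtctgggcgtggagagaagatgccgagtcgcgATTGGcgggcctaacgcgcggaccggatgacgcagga
Insig2, chr1:121332590-121332839, minus strand: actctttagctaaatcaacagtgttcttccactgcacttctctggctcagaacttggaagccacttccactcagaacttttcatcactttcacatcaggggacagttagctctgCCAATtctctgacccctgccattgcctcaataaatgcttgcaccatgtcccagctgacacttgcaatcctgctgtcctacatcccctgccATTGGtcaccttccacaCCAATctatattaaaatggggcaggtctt
The Hmgcs1 stretch holds the sterol element between 2 CCAAT boxes on its upstream side and 1 on its downstream side. The Insig1 stretch holds 1 CCAAT box and 1 E-box, the Lss stretch 1 CCAAT box, the Hsd17b7 stretch 2 CCAAT boxes and 1 E-box, and the Insig2 stretch 3 CCAAT boxes. The Insig2 stretch comes from the window nearest to the annotated gene start. The other Insig2 windows (chr1:121327629-121327928 and chr1:121327975-121328274) held none of the 3 motifs.

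Libraries held 44826777 to 54933588 estimated counts, and the lowest value of any member in any library was 137 estimated counts. Adcy3 ranged from 652 to 728 CPM (the count scaled to a fixed library size after TMM normalisation) across wild type and from 342 to 506 CPM across ADCY3∆AT, a log2 fold change of -0.78 ± 0.14 (SE) that did not pass in edgeR (adjusted p = 0.158), with an exact two-sided permutation p = 0.1, the smallest that 3 against 3 libraries allow. A row with the identifier ENSMUSG66666620654, which has no symbol in the annotation used here, held 21825 to 34493 estimated counts across wild type and 0 in all 3 ADCY3∆AT libraries, and it was the only gene called over all genes (edgeR adjusted p = 7.9e-06). That identifier ends in the same digits as the one of Adcy3, ENSMUSG00000020654. Its counts go with the genotype labels, and whether the row stands for the AT form was not tested. The 10 brown adipocyte markers, with Ucp1 among them, summed to 13870 to 14067 CPM across wild type and 12903 to 13286 CPM across ADCY3∆AT. Without overlap, 5 of the 10 were lower (against 8.83% of all genes) and 1 higher (against 7.68%). The 9 endothelial markers summed to 1122 to 1194 CPM across wild type and 1204 to 1288 CPM across ADCY3∆AT. Of these 9, 5 were higher without overlap, against 7.68% of all genes. The B cell marker Ighm lay at 8.95 to 16.3 CPM across wild type and at 31.5, 36.9 and 14.1 CPM in ADCY3∆AT replicates 1, 2 and 3. The 5 hepatocyte markers summed to 6.64 to 12.3 CPM over all 6 libraries. The 18 skeletal muscle markers summed to 947 to 1993 CPM across wild type and 289 to 658 CPM across ADCY3∆AT, with none at 0 in all libraries. Of these 18, 17 were lower without overlap, against 8.83% of all genes. The 5 erythroid markers, all with negative fold changes, summed to 2009, 1425 and 1376 CPM across wild type and 1329 to 1463 CPM across ADCY3∆AT. The 9 macrophage markers summed to 128 to 201 CPM across wild type and 143 to 213 CPM across ADCY3∆AT. The 9 fibroblast markers summed to 352 to 439 and 425 to 462 CPM. Each of these lists of 9 had 8 positive fold changes. No erythroid, macrophage or fibroblast marker was without overlap. The 3 white adipocyte markers summed to 25.6 to 39.8 CPM across wild type and to 55.8, 43.1 and 19.0 CPM in ADCY3∆AT replicates 1, 2 and 3. The part of these shifts in the results that follow was not tested, and in whole tissue a change in cell numbers cannot be told apart from a change of RNA per cell.

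Levels spanned a wide range. On the scale of CPM per kilobase of merged exons, Hmgcs1, the synthase that makes HMG-CoA at the entry to the pathway, led in wild type with 86.6 ± 13.5 (SD, n = 3). Insig1, the sterol-responsive INSIG, followed with 73.5 ± 1.03, so that these neighbours in the order did not differ beyond the spread of Hmgcs1. Acat2, which joins acetyl-CoA units in the cytosol, had 43.8 ± 1.43, and Npc2, the lysosomal protein that binds cholesterol, had 25.5 ± 0.27. Of the 12 enzymes from squalene on, Sc5d stood highest on this scale with 14.9 ± 0.97, and the others ran from Cyp51 (5.96 ± 0.48) over Sqle (2.75 ± 0.09) down to Tm7sf2 (1.00 ± 0.11). Soat1, which esterifies cholesterol for storage, was lowest with 0.51 ± 0.03, and the ratio of Hmgcs1 to Soat1 was 168.9. Merged exons include rarely used ones, and with the longest coding transcript as the length, an alternative added after the data were seen, 4 members moved by over 3 places in the order, while Hmgcs1, Insig1, Acat2 and Npc2 kept the highest places and Soat1 the lowest. With that length Msmo1 (7.12) and Lss (6.86) stood above Cyp51 (6.69) in wild type, and Dhcr7 (2.60) stood below Tm7sf2 (2.93).

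**Figure D1:**
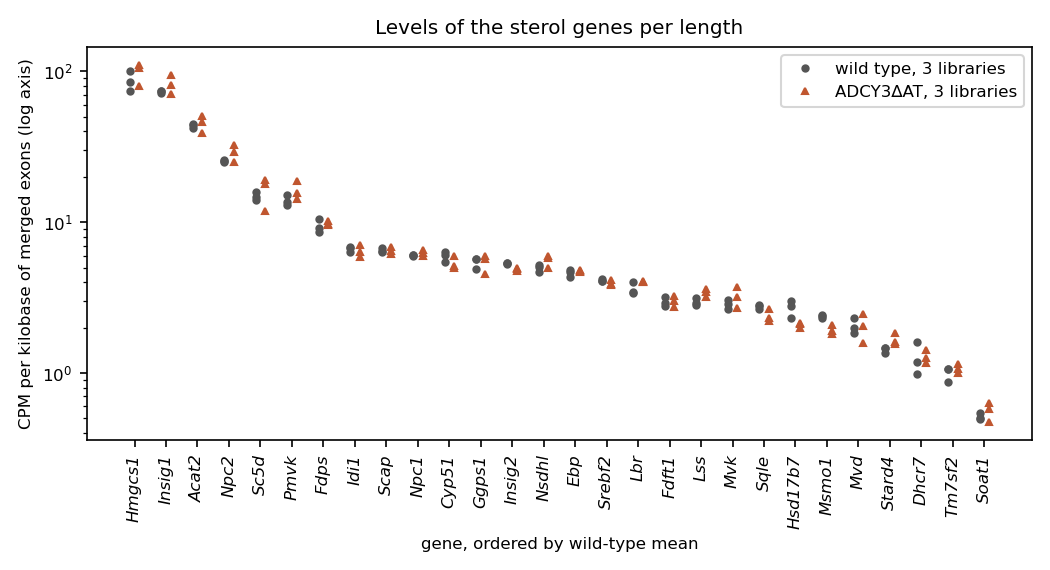
Level of each of the 28 genes in CPM per kilobase of merged exons (log axis), with the genes ordered by their wild-type mean; grey circles are the 3 wild-type and orange triangles the 3 ADCY3∆AT libraries. Hmgcs1 and Insig1 lie highest and Soat1 lowest, and the libraries of both genotypes lie close together for each gene.

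No member passed the threshold between genotypes. In edgeR's quasi-likelihood test with adjustment over all 18114 genes tested, 0 of the 28 members were called, against the 1 gene just named (0.00552%), and the lowest adjusted p of a member was 0.232, for Msmo1. DESeq2 called 0 members, against 1.2% of the genes it tested, and limma voom called 0. At an unadjusted p under 0.05 there were 6 members (21.4%, against 11% of all genes), of which 2 had higher means in ADCY3∆AT (background 5.23%) and 4 lower means (background 5.78%). The groups did not overlap for 6 members (21.4%, against 16.5% of all genes), 3 higher (background 7.68%) and 3 lower (background 8.83%). Of the 28 fold changes 18 were positive (64.3%, against 50.9% of all genes), and their median was 0.05 on the log2 scale, against 0.00 over all genes. The fold changes ran from -0.37 to 0.22, and 27 of the 28 were smaller than 0.3 in size.

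**Figure D2:**
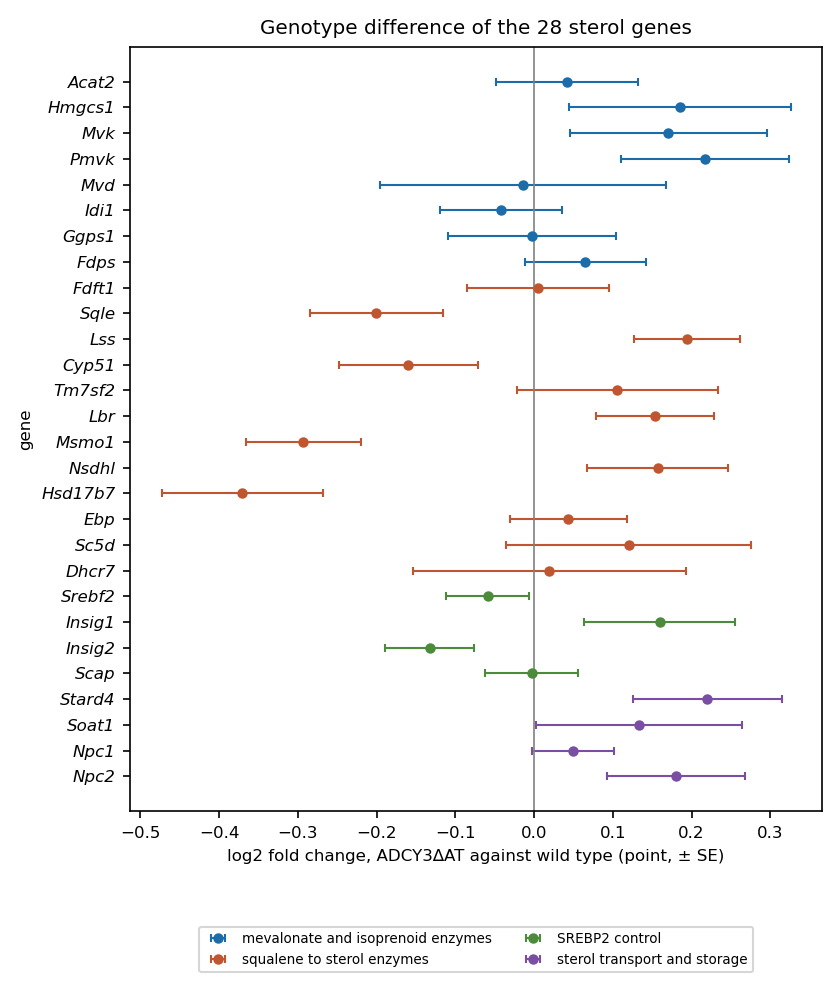
Log2 fold change of ADCY3∆AT against wild type for each gene (points) with its standard error (bars), coloured by role, from edgeR's fit of 3 against 3 libraries. Hsd17b7 and Msmo1 lie farthest below 0 and Stard4 and Pmvk farthest above, and none of these genes passed the threshold.

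The mevalonate and isoprenoid enzymes had 5 positive and 3 negative fold changes with a median of 0.05 (log2), and none had an unadjusted p under 0.05. Hmgcs1 measured 464, 341 and 389 CPM across wild type, against 508, 482 and 368 CPM across ADCY3∆AT. The first 2 ADCY3∆AT libraries lay above every wild-type library and replicate 3 lay inside the wild-type range, so the groups overlapped. The log2 fold change was 0.18 ± 0.14 (SE; edgeR adjusted p = 0.673). Fdps, which makes farnesyl diphosphate, the branch point to sterols and to prenyl groups, measured 44.2, 36.3 and 38.4 CPM across wild type, against 43.1, 40.5 and 40.8 CPM across ADCY3∆AT. All 3 ADCY3∆AT values of Fdps lay inside the wild-type range, with a log2 fold change of 0.07 ± 0.08 (edgeR adjusted p = 0.795). Pmvk, a kinase that phosphorylates mevalonate phosphate, had the largest mean difference of the branch, 0.22 ± 0.11 on the log2 scale, from a wild-type mean of 23.8 ± 1.90 CPM to 27.7 ± 4.00 CPM (SD, n = 3 each). Mvk, mevalonate kinase, differed by 0.17 ± 0.13 and Acat2 by 0.04 ± 0.09. The decarboxylase Mvd (-0.01 ± 0.18), the isomerase Idi1 (-0.04 ± 0.08) and Ggps1, which makes geranylgeranyl diphosphate (-0.00 ± 0.11), had fold changes close to 0 and smaller than their standard errors.

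The enzymes from squalene to cholesterol held 4 of the 6 members with an unadjusted p under 0.05, and these pointed in both directions. Msmo1, the methylsterol oxidase that removes methyl groups of the ring, measured 14.8, 14.1 and 14.7 CPM across wild type, against 11.2, 11.7 and 12.7 CPM across ADCY3∆AT. Every ADCY3∆AT library of Msmo1 lay below every wild-type library, and the log2 fold change was -0.29 ± 0.07 (edgeR adjusted p = 0.232). Hsd17b7, the ketosteroid reductase of the same demethylation steps, measured 14.3, 15.2 and 11.8 CPM across wild type, against 10.7, 10.99 and 10.2 CPM across ADCY3∆AT. Its groups did not overlap either, with wild-type replicate 3 nearest to ADCY3∆AT, and the log2 fold change was -0.37 ± 0.10 (edgeR adjusted p = 0.268; DESeq2 adjusted p = 0.146). Nsdhl, the dehydrogenase that acts between those enzymes, had a fold change of the other sign, 0.16 ± 0.09 on the log2 scale, with overlapping groups.

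Sqle, squalene epoxidase, a rate-limiting step of the later pathway, measured 15.5, 15.6 and 14.6 CPM across wild type, against 12.3, 12.8 and 14.8 CPM across ADCY3∆AT. Replicates 1 and 2 of ADCY3∆AT lay below wild type and replicate 3 inside its range, with a log2 fold change of -0.20 ± 0.08 (edgeR adjusted p = 0.437). Lss, lanosterol synthase, which closes the ring directly after Sqle acts, measured 34.1, 30.3 and 31.6 CPM across wild type, against 37.0, 38.7 and 34.2 CPM across ADCY3∆AT. The Lss groups did not overlap, although ADCY3∆AT replicate 3 lay just above wild-type replicate 1, and the log2 fold change was 0.19 ± 0.07 (edgeR adjusted p = 0.353). Consecutive enzymes therefore had mean differences of opposite sign, neither of which passed.

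The pair of enzymes that can reduce the same double bond of the ring were compared next. Lbr, the lamin B receptor of the inner nuclear membrane, measured 19.0, 16.2 and 16.5 CPM across wild type, against 19.1, 19.1 and 19.3 CPM across ADCY3∆AT. The ADCY3∆AT libraries of Lbr lay close together and above every wild-type library, by little above replicate 1, with a log2 fold change of 0.15 ± 0.07 (edgeR adjusted p = 0.509). Tm7sf2, the reductase of the endoplasmic reticulum, measured 3.85, 4.68 and 4.66 CPM across wild type, against 5.07, 4.43 and 4.67 CPM across ADCY3∆AT, with overlapping groups and a log2 fold change of 0.11 ± 0.13 (edgeR adjusted p = 0.799). Per kilobase of merged exons Lbr was the higher of the pair in wild type, with 3.62 ± 0.32 against 1.00 ± 0.11 (SD, n = 3 each), and with the longest coding transcript as the length these means were closer, 4.91 against 2.93. Tm7sf2 shares 12.1% of its exon bases with Vps51 on the same strand, so reads could be divided between these genes.

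Among the remaining enzymes of this stage, Cyp51, the lanosterol demethylase, had a log2 fold change of -0.16 ± 0.09 and Sc5d, a sterol desaturase, 0.12 ± 0.16. Ebp, a sterol isomerase, differed by 0.04 ± 0.07 and Dhcr7, a reductase of a final step to cholesterol, by 0.02 ± 0.17. Fdft1, squalene synthase, averaged 12.6 ± 0.90 CPM (SD, n = 3) among wild-type and 12.7 ± 1.08 CPM (SD, n = 3) among ADCY3∆AT libraries, with a log2 fold change of 0.00 ± 0.09. Fdft1 shares 18.3% of its exon bases with Ctsb on the opposite strand, which held 26808 to 39218 estimated counts per library, and the sources used here do not state whether the counting used strand. In all, 11 of the 28 members share exon bases with another annotated gene, and Fdps shares 26.7% of its own with Gm43738 on the same strand, which is listed at 0 in every library.

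Genes that control SREBP2 showed small differences, with 1 positive and 3 negative fold changes. Srebf2, which encodes SREBP2, measured 29.3, 30.2 and 29.2 CPM across wild type, against 27.5, 29.6 and 28.04 CPM across ADCY3∆AT. The groups overlapped through ADCY3∆AT replicate 2, and the log2 fold change was -0.06 ± 0.05 (edgeR adjusted p = 0.725). Scap, the escort of SREBP2, averaged 48.4 ± 1.85 CPM (SD, n = 3) among wild-type and 48.3 ± 2.79 CPM (SD, n = 3) among ADCY3∆AT libraries. RNA levels of these genes do not show how much SREBP2 is cleaved and nuclear.

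The INSIG genes pointed in opposite directions. Insig1, itself a textbook target of SREBP2, measured 229, 224 and 230.0 CPM across wild type, against 292, 252 and 218 CPM across ADCY3∆AT. Wild-type libraries of Insig1 lay close together, while ADCY3∆AT replicates 1 and 2 lay above all of them and replicate 3 below, giving a log2 fold change of 0.16 ± 0.10 (edgeR adjusted p = 0.593). Insig2, the form that is less dependent on SREBP2, measured 18.8, 18.8 and 18.4 CPM across wild type, against 16.6, 17.05 and 17.4 CPM across ADCY3∆AT. Every ADCY3∆AT library of Insig2 lay below every wild-type library, with a log2 fold change of -0.13 ± 0.06 (edgeR adjusted p = 0.444). Per kilobase of merged exons Insig1 stood at 73.5 and Insig2 at 5.37 in wild type.

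All 4 genes of sterol transport and storage had positive fold changes, with a median of 0.16 (log2), and none passed. Stard4, a soluble protein that carries cholesterol between membranes, measured 7.56, 8.24 and 8.20 CPM across wild type, against 10.3, 8.94 and 8.74 CPM across ADCY3∆AT. The Stard4 groups did not overlap, and the log2 fold change was 0.22 ± 0.09 (edgeR adjusted p = 0.445). Npc2 measured 140.0, 139 and 137 CPM across wild type, against 176, 160 and 136 CPM across ADCY3∆AT. As for Insig1, ADCY3∆AT replicates 1 and 2 lay above the narrow wild-type range and replicate 3 just below it, with a log2 fold change of 0.18 ± 0.09 (edgeR adjusted p = 0.509). Npc1, the membrane partner of Npc2 in the lysosome, differed by 0.05 ± 0.05. Soat1 measured 5.30, 4.93 and 4.83 CPM across wild type, against 4.64, 5.69 and 6.20 CPM across ADCY3∆AT, so that, unlike for Stard4 and Npc2, replicate 1 was the lowest ADCY3∆AT library and lay below wild type. Its log2 fold change was 0.13 ± 0.13 (edgeR adjusted p = 0.750).

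The ADCY3∆AT libraries also differed among themselves. Replicate 1 was the highest of all 6 libraries for 11 of the 28 genes, against 19.3% of all genes, and replicate 3 was the lowest for 9, against 15.7%. In replicate 1, 17 members (60.7%) lay above every wild-type library, against 29.2% of all genes, and 6 (21.4%) below, against 29.3%. In replicate 2, 13 members (46.4%, background 28.9%) lay above and 8 (28.6%, background 28.6%) below. In replicate 3 the counts were 6 above (21.4%, background 26.4%) and 12 below (42.9%, background 26.8%). Of the 8 mevalonate and isoprenoid enzymes, 7, 5 and 0 lay above every wild-type library in replicates 1, 2 and 3, and 0, 0 and 4 lay below. Median deviations of these 8 enzymes from the wild-type mean were 0.18, 0.10 and -0.14 on the log2 scale in the same order. Hsd17b7, Msmo1 and Insig2 lay below, and Lss, Lbr and Stard4 above, every wild-type library in all 3 replicates. The summed white adipocyte markers were also highest in replicates 1 and 2 and lowest in replicate 3 of ADCY3∆AT (55.8, 43.1 and 19.0 CPM), which holds for Lep, while Nnat was highest in replicates 1 and 2 but not lowest in replicate 3, and Retn went otherwise (14.98, 11.3 and 9.23 CPM, against 13.0 to 16.6 CPM across wild type). The 6 general adipocyte markers summed to 8079, 7596 and 7145 CPM in the same replicates, against 7430 to 7546 CPM across wild type, and the muscle markers were lowest in replicate 1 (289, 516 and 658 CPM). The part of these cells in the pattern was not tested.

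**Figure D3:**
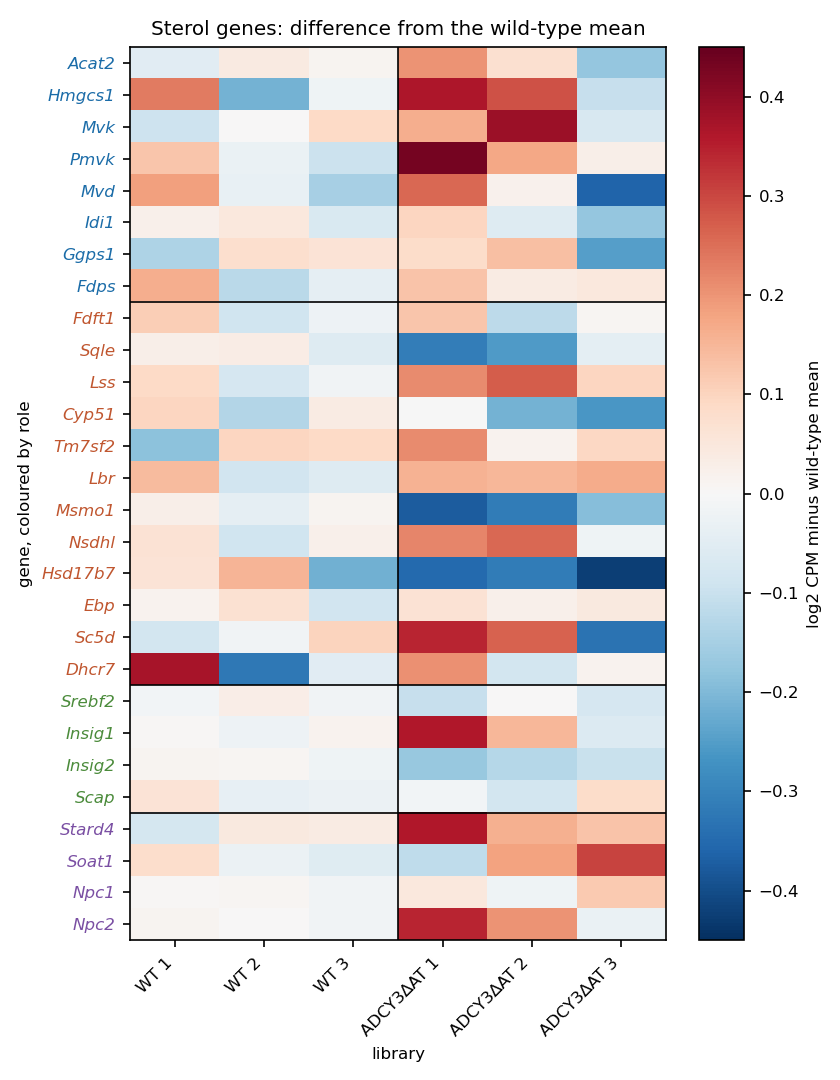
Difference of log2 CPM from the wild-type mean for each of the 28 genes (rows, coloured by role and separated by lines) in each of the 6 libraries (columns); red is above and blue below the wild-type mean. Most mevalonate and isoprenoid enzymes are red in ADCY3∆AT replicates 1 and 2 and pale or blue in replicate 3, while Hsd17b7, Msmo1 and Insig2 are blue in all 3.

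Leaving out ADCY3∆AT replicate 3 changed the number of members at a low unadjusted p more than leaving out any other library. Without it 9 members had higher means at an unadjusted p under 0.05, against 2 with all libraries and 6.22% of all genes in the same fit, and 3 had lower means, against 7.81%. The 9 were Hmgcs1, Mvk, Pmvk, Lss, Nsdhl, Sc5d, Insig1, Stard4 and Npc2, with log2 fold changes from 0.24 (Nsdhl and Lss) to 0.31 (Hmgcs1), and the 3 were Sqle (-0.28), Msmo1 (-0.35) and Hsd17b7 (-0.34). In that fit edgeR still called 0 of the 28 members, against 0.355% of genes, and the lowest adjusted p-values were 0.0980 for Msmo1 and 0.0982 for Npc2. Without ADCY3∆AT replicate 1 or 2, or wild-type replicate 2 or 3, 0 members had higher means at an unadjusted p under 0.05, and without wild-type replicate 1 there were 4.

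Co-variation between libraries was measured against Hmgcs1, over 31 relations in log2 CPM (27 other members and Fasn, Acly, Srebf1 and Acta1). None of the 31 passed after Benjamini-Hochberg adjustment of the exact two-sided permutation p over 720 pairings. Of the 27 members 18 had a positive Pearson r, and 4 had an unadjusted p under 0.05, namely Nsdhl, Pmvk, Npc2 and Insig1. The shares of all genes that reach such values with Hmgcs1 were not measured. These counts therefore do not show whether the members follow Hmgcs1 more closely than other genes do. Nsdhl lay closest to Hmgcs1, with r = 0.92 (exact permutation p = 0.00833, adjusted p = 0.187) and Spearman's rho = 0.94 (exact permutation p = 0.0167, adjusted p = 0.172) over 6 libraries. Without wild-type replicate 2 and ADCY3∆AT replicate 1, the libraries farthest from the median of Hmgcs1, r was 0.84. Insig1 had r = 0.79 (exact permutation p = 0.0333, adjusted p = 0.187) and rho = 0.89 (exact permutation p = 0.0333, adjusted p = 0.258), with r = 0.78 without those libraries. Sqle ran the other way, with r = -0.73 (exact permutation p = 0.125, adjusted p = 0.381) and rho = -0.83 (exact permutation p = 0.0583, adjusted p = 0.258), and r = -0.41 without those libraries. Srebf2 had r = -0.37 (exact permutation p = 0.438, adjusted p = 0.620) and rho = -0.43 (exact permutation p = 0.419, adjusted p = 0.619), and r turned to 0.82 without those libraries, so its sign rests on them. For Srebf1 r was 0.09 (exact permutation p = 0.872, adjusted p = 0.901), 0.56 without those libraries, and 0.90 with the mean of each genotype subtracted. Its rho was -0.20 (exact permutation p = 0.714, adjusted p = 0.763). For the muscle gene Acta1 r was -0.65 (exact permutation p = 0.157, adjusted p = 0.381), and -0.40 without those libraries. Its rho was -0.54 (exact permutation p = 0.297, adjusted p = 0.576). Each genotype has only 3 libraries, too few for a coefficient within it, and the points share library size and tissue makeup. Differences between the genotypes enter the coefficients over 6 libraries, and the permutations exchanged libraries between genotypes. With the mean of each genotype subtracted, r was 0.93 for Nsdhl, 0.73 for Insig1 and -0.70 for Sqle. In the same way it was -0.14 for Srebf2 and -0.57 for Acta1. These values were not tested. Fasn and Acly were also among the 6 of the 31 relations with an unadjusted permutation p of r under 0.05. Fasn had r = 0.84 (exact permutation p = 0.0236, adjusted p = 0.187) and Acly r = 0.83 (exact permutation p = 0.0278, adjusted p = 0.187). For each of them rho was 0.94 (exact permutation p = 0.0167, adjusted p = 0.172), equal to that of Nsdhl. Without wild-type replicate 2 and ADCY3∆AT replicate 1, r was 0.67 and 0.70. Both genes fell into separate clusters of libraries, with ADCY3∆AT replicates 1 and 2 apart, so these coefficients partly reflect that split. Their values in each library are given next.

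Genes of fatty acid synthesis and its control, among them known SREBP1 targets and Srebf1 itself, were set beside the sterol genes. Whether SREBP1 drives them here was not tested. The 16 genes had 12 positive and 4 negative fold changes with a median of 0.31 (log2), and edgeR called 0 of them. At an unadjusted p under 0.05, 7 were higher (background 5.23%) and 1 was lower (background 5.78%). Fasn, which builds palmitate, measured 1736, 1410 and 1832 CPM across wild type, against 5303, 4080 and 1661 CPM across ADCY3∆AT. Acly, which makes cytosolic acetyl-CoA for both pathways, measured 193, 167 and 207 CPM across wild type, against 570, 439 and 173 CPM across ADCY3∆AT. For both genes ADCY3∆AT replicates 1 and 2 lay far above wild type and replicate 3 inside its range. Hmgcs1 showed the same placing at a smaller size, and for Insig1 and Npc2 replicate 3 lay below the wild-type range instead. The log2 fold changes were 1.15 ± 0.35 for Fasn (edgeR adjusted p = 0.310) and 1.06 ± 0.35 for Acly (edgeR adjusted p = 0.338), against 0.18 ± 0.14 for Hmgcs1. Without ADCY3∆AT replicate 3 they were 1.499 (edgeR adjusted p = 0.0134) and 1.42 (edgeR adjusted p = 0.0125), and 4 of the 16 genes passed, against 0.355% of all genes in that fit. Srebf1 itself measured 268, 246 and 246 CPM across wild type, against 215, 222 and 182 CPM across ADCY3∆AT, with groups that did not overlap and a log2 fold change of -0.29 ± 0.08 (edgeR adjusted p = 0.269; DESeq2 adjusted p = 0.0487).

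**Figure D4:**
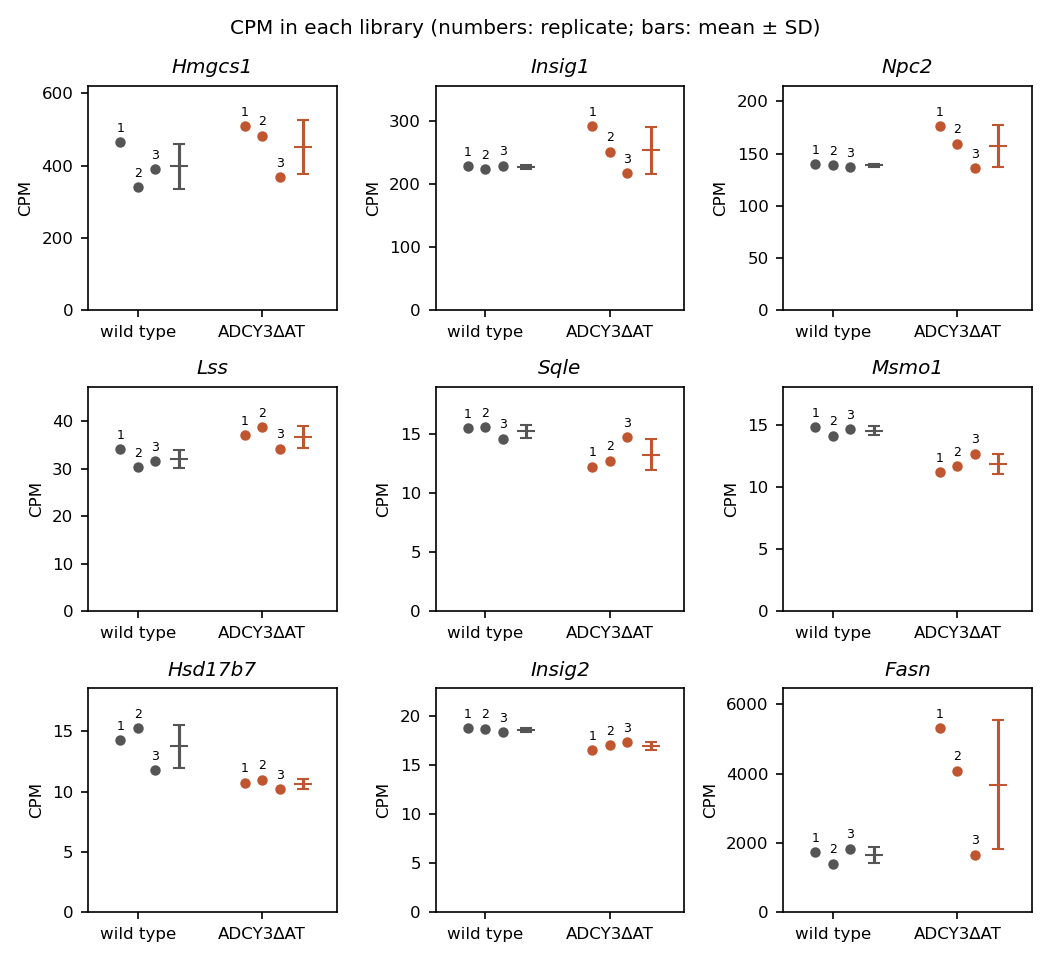
CPM of 8 sterol genes and Fasn in each library (points, numbered by replicate) with the mean and SD of each genotype (bars), on axes that start at 0. Hmgcs1, Insig1, Npc2 and Fasn lie above every wild-type library in ADCY3∆AT replicates 1 and 2 but not 3, while Msmo1, Hsd17b7 and Insig2 lie below wild type in all 3 ADCY3∆AT libraries.

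Further sterol genes, of SREBP cleavage, INSIG turnover, sterol sensing, export and uptake, gave 14 positive and 16 negative fold changes among 30 genes, with a median of -0.03 (log2), and edgeR and DESeq2 called 0 of them. At an unadjusted p under 0.05, 2 were higher (background 5.23%) and 2 lower (background 5.78%), counts near the background. The lowest p-values belonged to Mylip, a ubiquitin ligase induced by sterol-activated LXR receptors (0.28 ± 0.07; edgeR adjusted p = 0.241), to Abca1, the exporter of cholesterol to lipoproteins (-0.25 ± 0.07; edgeR adjusted p = 0.303), and to Lipa, the lysosomal lipase that frees cholesterol from its esters (-0.13 ± 0.05; edgeR adjusted p = 0.350). Mylip and Abca1, both known LXR targets, had fold changes of opposite sign. Among 13 genes that use isoprenoids for prenylation, dolichol and ubiquinone, 3 fold changes were positive and 10 negative, with a median of -0.07. None passed in edgeR or DESeq2, and 0 were higher (background 5.23%) and 3 lower (background 5.78%) at an unadjusted p under 0.05. These 3 were Dolk, which phosphorylates dolichol (-0.25 ± 0.06; edgeR adjusted p = 0.209), Rabggtb, a subunit of the Rab prenyltransferase (-0.20 ± 0.06; edgeR adjusted p = 0.305), and Pdss1, which builds the ubiquinone side chain (-0.20 ± 0.07; edgeR adjusted p = 0.365). Dolk measured 47.9, 46.7 and 43.1 CPM across wild type, against 39.3, 39.1 and 37.4 CPM across ADCY3∆AT, without overlap, whereas Fdps and Ggps1, which supply its pathway and the prenyltransferases, had fold changes smaller than their standard errors.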

How the data were processed

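Total RNA of brown adipose tissue was sequenced as paired-end libraries (NEBNext Ultra II kit, NovaSeq6000), per the labels. The authors deposited a table of unnormalised estimated counts with 1 row per Ensembl identifier, and 31.6% of the values carry a fraction of a count. The submitters' processing notes name GRCm38, StringTie, Salmon and edgeR, without roles, versions or settings. All 6 value columns were matched to samples by their header names. Symbols came from GENCODE M21 (GRCm38) for 54131 of 54385 rows, and the 254 others held 0.0513% to 0.0656% of a wild-type and 0.0028% to 0.00298% of an ADCY3∆AT library.

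Counts were rounded, genes were kept with filterByExpr and libraries scaled with TMM factors. Genotypes were compared with edgeR 4.0.16 (R 4.3.3; quasi-likelihood F test, Benjamini-Hochberg adjustment, threshold 0.05). Standard errors are those implied by the F statistic. Log2 CPM used a prior count of 2. Correlations had exact permutation p-values. On simulated data for ADCY3∆AT against wild type, with 18114 genes drawn independently, edgeR recovered 28.4%, 65.7% and 90.9% of genes changed by 1.5-, 2- and 4-fold, and 7.52% of its calls were unchanged genes, above the intended share of 0.05. Alternatives used DESeq2 1.42.0, limma 3.58.1, other scalings and filters, removal of muscle and mitochondrial genes, the replicate number as a block and leaving out each library.

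Values in every library are given for the 8 members with the lowest p and for Hmgcs1, Sqle, Fdps, Srebf2, Insig1, Insig2, Soat1, Npc2, Lbr and Tm7sf2. Of each other list the 3 genes with the lowest p are named. The members and lists were chosen with earlier results of these data known. The per-library counts against the wild-type range, and the longest-transcript lengths, were added after the data were seen.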

Additional observations from a re-analysis of the deposited data

How the results depend on the processing

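No member passed under any alternative, and the lowest adjusted p of a member in any of them was 0.0980. Of 392 values of single members under the alternatives, 372 kept their direction and 20 reversed, in 8 members whose fold changes ran from -0.04 (Idi1) to 0.12 (Sc5d). Ggps1 turned to 0.0117 and Scap to 0.0120 with library totals alone, and Fdft1 turned to -0.00315 in limma voom. Leaving out 1 library gave ranges of -0.0453 to 0.138 for Acat2, -0.168 to 0.135 for Mvd, -0.116 to 0.0198 for Idi1, -0.0762 to 0.106 for Ggps1, -0.0587 to 0.0654 for Fdft1, -0.00511 to 0.303 for Sc5d, -0.128 to 0.233 for Dhcr7 and -0.0483 to 0.0351 for Scap. The cause was not tested.

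Over all genes, DESeq2 called 231, limma voom 2, edgeR without a low-count filter 214 and the replicate block 3, against 1, and leaving out 1 library gave 1 to 66 (66 without ADCY3∆AT replicate 3, and 4, 2 and 2 without wild-type replicates 2, 1 and 3). Adcy3 passed in DESeq2 (-0.78, adjusted p = 4.11e-07) and without a low-count filter (-0.78, adjusted p = 0.00321), with a range of -0.99 to -0.68 when 1 library was left out. Members at an unadjusted p under 0.05 numbered 4 higher and 2 lower with library totals alone, 1 higher in limma voom, 2 lower in DESeq2 and 2 lower with the replicate block, and 0 to 9 higher and 2 to 3 lower when 1 library was left out. Of the further sterol genes 1 was higher in DESeq2, 1 higher and 1 lower with the replicate block, 1 lower with library totals alone and 4 lower without a low-count filter, and 1 to 2 higher and 1 to 3 lower when 1 library was left out, with medians of -0.0429 to 0.0181 (positive when replicate 1 of either genotype was left out). The isoprenoid users had 0 to 1 higher and medians of -0.0787 to -0.0255 when 1 library was left out. Of the fatty acid genes 1 was called in DESeq2 (Srebf1) and 1 without a low-count filter (Fasn, adjusted p = 0.0485), 4 were higher in limma voom, and 2 were lower in DESeq2, in limma voom and without a low-count filter. Leaving out 1 library gave 0 to 4 called (4 without ADCY3∆AT replicate 3), 1 to 10 higher (1 without ADCY3∆AT replicate 1) and 1 to 2 lower. Relations with Hmgcs1 at an unadjusted p under 0.05 numbered 1 to 6 when 1 library was left out (1 without wild-type replicate 2 or 3 or ADCY3∆AT replicate 1), and 0 passed after adjustment in each case.

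Same-numbered libraries of the 2 genotypes are not said to be paired, and their deviations from the group means correlated at -0.0857, -0.128 and -0.0864, so the replicate block is reported here only, by the counts above. The smallest change simulated was 1.5-fold, larger than the difference of any member, so the share of changes of the observed sizes that 3 libraries per genotype would recover was not measured.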
